A study of Mus musculus with 96 samples.

Results

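The genes described here encode the proteasome and the proteins that assemble, activate or restrain it. They were taken by name, as the protein-coding genes whose mouse symbol starts with Psma, Psmb, Psmc, Psmd, Psme, Psmf or Psmg in GENCODE M21, and they came to 50 of the 55401 gene rows. The 50 comprised 8 alpha and 11 beta subunits of the core particle, 4 of which are inducible or tissue-restricted beta subunits. The regulatory particle contributed 9 base and 8 lid subunits. Beside these stood 5 activator genes, 1 inhibitor, 4 chaperones of core assembly and 3 of base assembly. The remaining gene, Psmc3ip, carries the prefix but encodes a partner of the meiotic recombinases and is no proteasome subunit. It forms a role of its own, but is included in all counts and medians over the members, those of promoter windows among them.

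The proteasome is a barrel of stacked alpha and beta rings in which proteins tagged with ubiquitin are cut into peptides. The beta subunits Psmb5, Psmb6 and Psmb7 hold the cutting sites, and the alpha ring forms the gate. The regulatory particle binds ubiquitin, removes it and unfolds the substrate, whereas Psme1 with Psme2, Psme3 and Psme4 encode alternative caps that open the gate without ubiquitin. In the embryo this machinery is known for removing maternal proteins after fertilization.

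RNA was measured in 96 single oocytes and embryos of strain C57BL/6J, none of them treated. Females were superovulated with PMSG followed by hCG and mated with males of the same strain, cumulus cells were taken off with hyaluronidase in M2 medium, and embryos were kept in KSOM. Libraries were made with SMART-Seq v4, which copies RNA from its poly(A) tail, and Nextera XT. A level in such a library can change with the amount of a message or with the length of its tail, and these cannot be told apart. There were 8 oocytes, 7 morulae and, by hours after fertilization, 5 embryos each at 0, 2, 8, 10, 12, 14 and 20, 2 at 4, 3 at 6, 8 each at 16 and 36, 9 at 18, 10 at 22 and 6 at 24. The 36 h group is the late 2-cell stage of the series. Per the labels, the 0 h to 36 h embryos formed 1 processing cohort, whereas oocytes and morulae belonged to other batches, so batch and stage cannot be told apart between 0 h and oocytes or between morulae and 36 h. Every library is 1 oocyte or embryo, and the labels do not say which shared a mother. In an embryo of several cells, fewer cells with a message and less of it per cell cannot be told apart.

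Levels are gene counts scaled to a library total of 1000000 (CPM), with library sizes scaled by TMM factors, and a gene is called higher or lower where edgeR's quasi-likelihood test gave an adjusted p below 0.05 over all genes tested. Total gene counts ran from 10378 in morula replicate 4 to 6795311, with a median of 2099222 and a second lowest total of 564538. Morula replicate 4 held counts of 31 of the 50 genes and stood apart from the other morulae. Replicate 5 of 10 h went against its label: 9 oocyte marker genes summed to 18.8 CPM there, against 15721 to 20559 CPM in the other 10 h libraries, while 14 cumulus and granulosa genes summed to 7207 CPM. No comparison below sets the 10 h group against another. The runs with 1 fit of all 96 libraries do include this library in their estimate of the spread, and its part in them was not tested. The same cumulus list stood at 1007 to 1802 CPM in 1 oocyte and in 1 library each of the groups 8 h, 12 h, 14 h and 36 h, and had a median of 1.61 CPM in morulae. From 16 h to 24 h some library titles end in the letter b, a mark whose meaning the labels do not give.

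Across the 16 groups, the summed messages of both core rings were highest in morulae. The alpha sum was higher in oocytes and 1-cell embryos than at 36 h, where it was lowest. The beta sum was lowest at 16 h, and was lower in oocytes than at 36 h. The summed level of Psma1 to Psma7 was, as a group median, 2133 CPM for oocytes and 2524 CPM for 0 h embryos, then 1751 CPM for 12 h, 1072 CPM for 24 h and 588 CPM for 36 h, and 4695 CPM in morulae. These sums are described without a test. The sum of Psmb1 to Psmb7 ran from 420.5 CPM in oocytes through 818 CPM at 0 h and 337 CPM at 16 h to 597 CPM at 36 h and 4146 CPM in morulae. The alpha genes thus outweighed the beta genes in oocytes and early embryos, while the sums were close to each other at 36 h and in morulae. In morula replicate 4 the alpha sum was 922 CPM and the beta sum 811 CPM, against 3876 to 5893 CPM and 3644 to 4666 CPM in the other 6 morulae.

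The 17 genes of the regulatory particle followed the core in part. The 9 base genes summed to 921 CPM in the median oocyte, against 424 CPM for 36 h and 1802 CPM for morulae, and the 8 lid genes had 720.3, 436 and 1973 CPM. Chaperones of core assembly (Psmg1 to Psmg4) differed alike, with 52.98 CPM in 36 h embryos against 345 CPM in morulae. Activators differed the other way, with 462 CPM in 36 h embryos against 185 CPM in morulae. Of the 50 genes, 32 had their highest stage median in morulae, 3 at 24 h and 2 each in oocytes and at 0 h, 4 h, 12 h and 36 h.

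**Figure D1:**
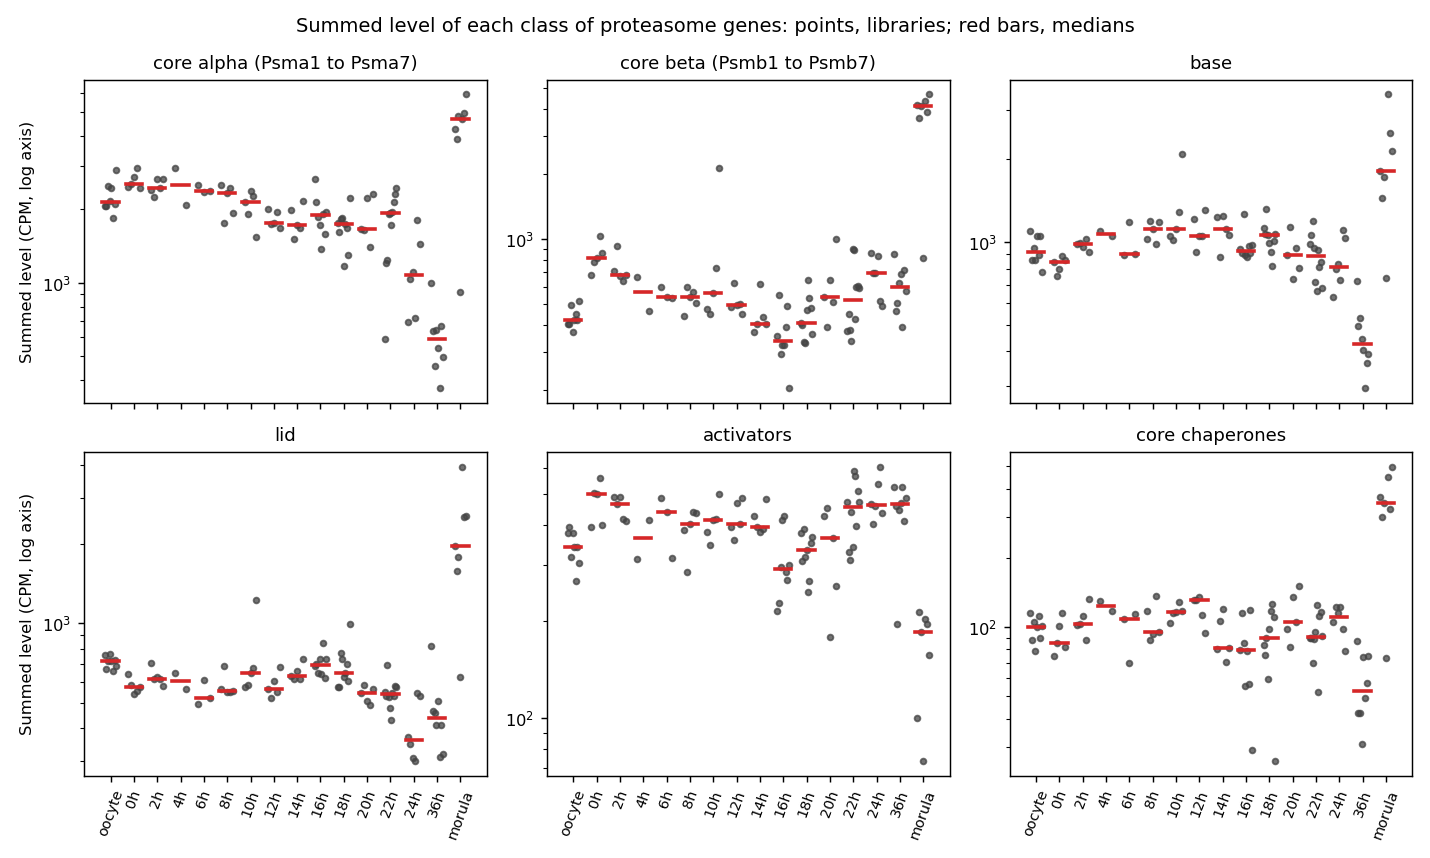
Summed level of 6 subunit classes (CPM, log axis, 1 panel each) against stage, where every point is 1 oocyte or embryo and red bars are group medians. The alpha and beta medians are 588 and 597 CPM at 36 h and highest in morulae, where replicate 4 lies far below the other 6.

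**Figure D2:**
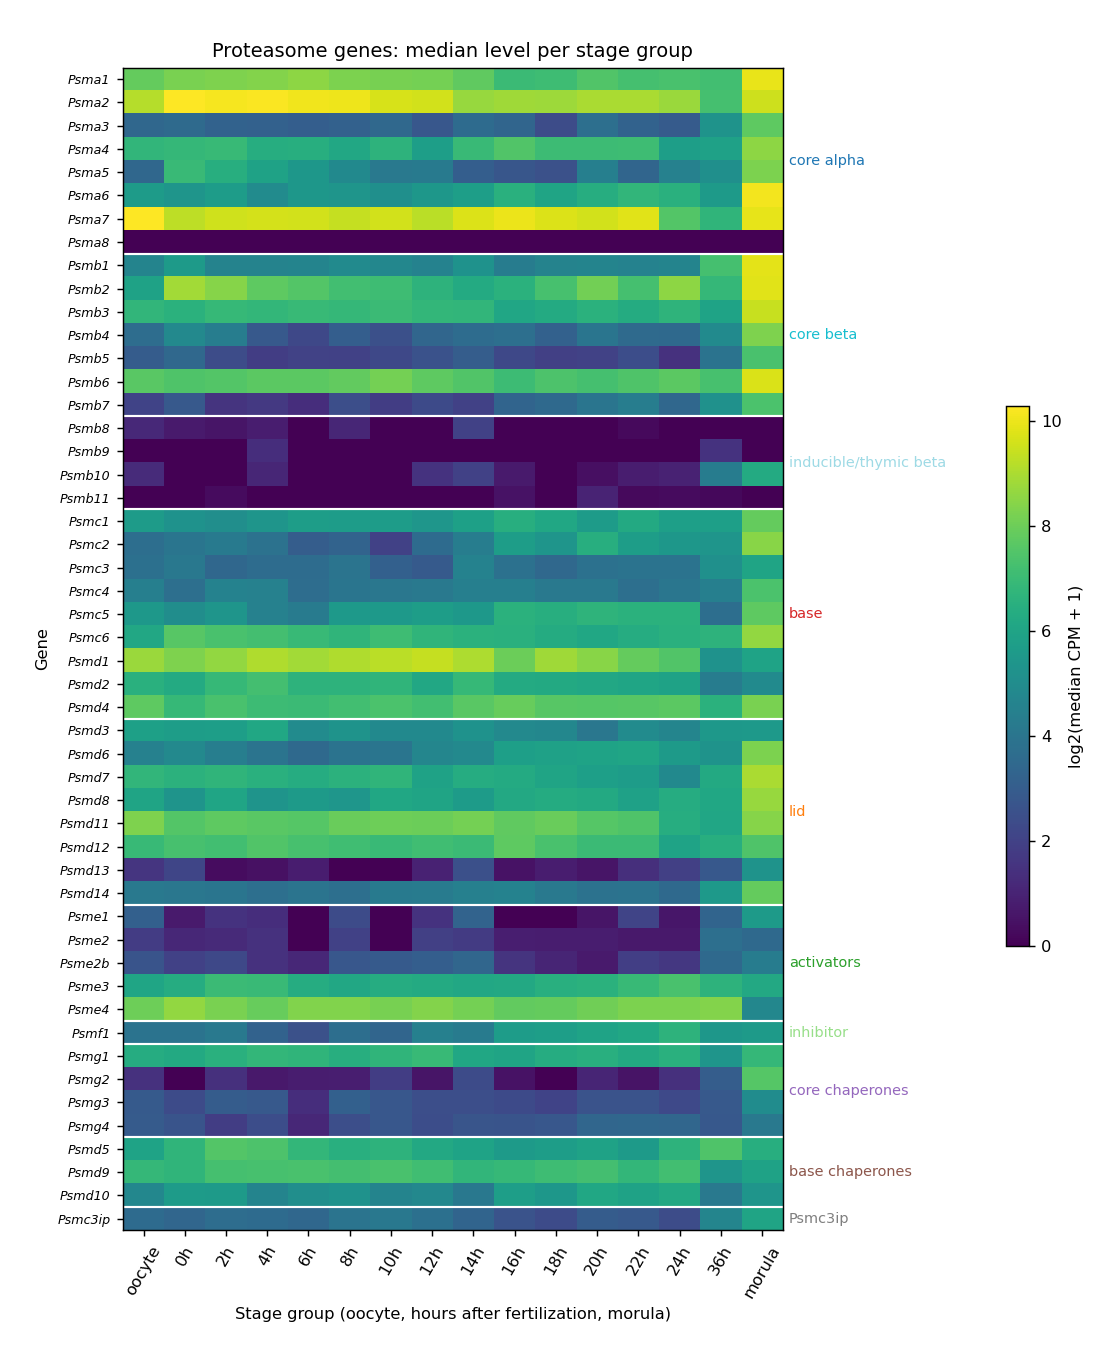
Median level of every gene in every stage group, in order of role, coloured by log2(median CPM + 1). Most rows are brightest in morulae, whereas Psme4 has its lowest median there and Psmd1 is high in oocytes and 1-cell embryos.

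Messages of subunits that stand in equal numbers in the assembled particle were far from equal in oocytes and in embryos up to 24 h. Per kilobase of exon, the mean level of the 14 constitutive core genes ranged in oocytes from 1.05 CPM per kb for Psmb7, which holds the trypsin-like site, to 418 CPM per kb for Psma7, a ratio of 398. The ratio of highest to lowest was 246 at 0 h, 154 at 12 h and 123.5 at 24 h. At 36 h it was 9.23, from 10.36 CPM per kb for Psma3 to 95.7 CPM per kb for Psmb2, and in morulae 18.1, from 43.3 for Psmb7 to 785 for Psma6. The standard deviation of the log2 levels over the 14 genes was 2.50 in oocytes, 2.46 at 0 h and at 12 h, 2.35 at 24 h, 0.99 at 36 h and 1.21 in morulae. By both measures levels of different core genes lay closer together at 36 h and in morulae than in any of the 14 earlier groups; the 10 h value of 60.8 for the ratio includes the library that went against its label.

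A single gene made up much of the core pool in oocytes. Psma7 took a median of 47.4% of all core CPM there, with a range of 43.2% to 51.1% over 8 oocytes. Its share was 18.6% at 0 h, where Psma2 held 38.1%, then 45.5% at 16 h, 8.11% at 36 h and 11.4% in morulae. For the 17 regulatory particle genes the ratio of highest to lowest per-kilobase level was 92.5 in oocytes, 46.8 at 14 h, 89.7 at 24 h, 17.3 at 36 h and 23.5 in morulae. Their standard deviation of log2 levels was 1.77, 1.51, 1.61, 1.11 and 1.57 in the same groups, so by this measure the cap genes lay closer together at 36 h but not in morulae. Psmd13, a lid subunit, was the lowest of the 17 in every group up to 36 h.

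**Figure D3:**
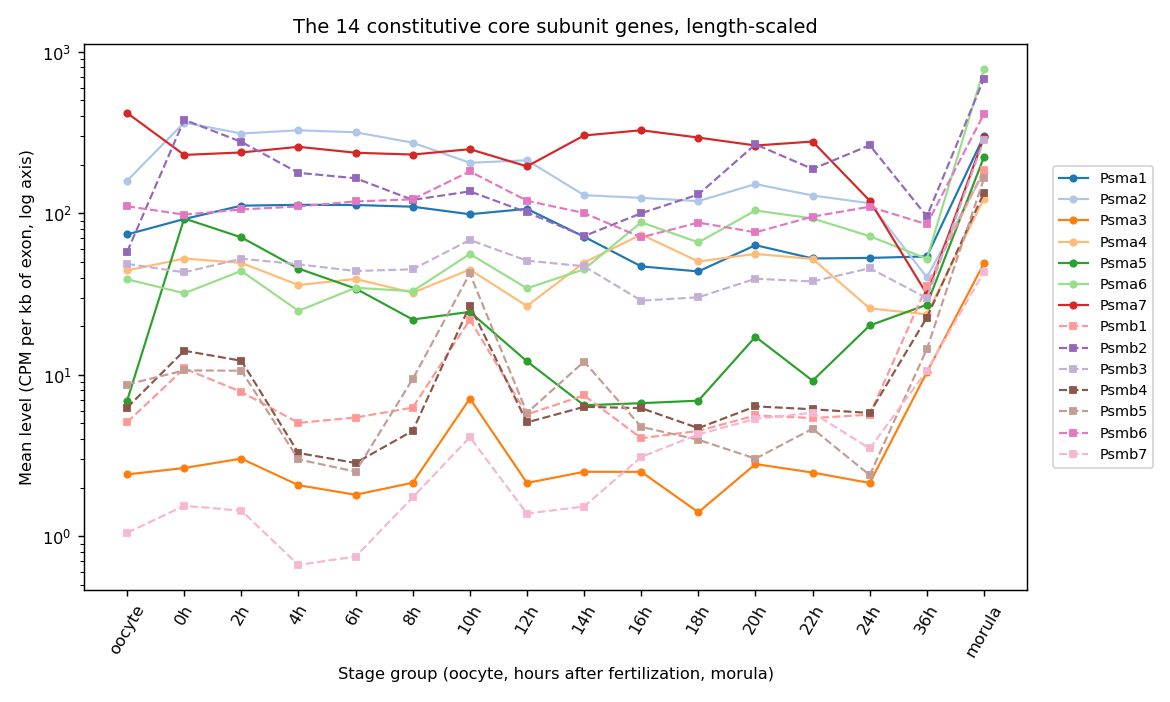
Mean level per kilobase of exon (log axis) of the 14 constitutive core genes at each stage, 1 line per gene. The spread from the lowest to the highest gene is 398-fold in oocytes, 9.23-fold at 36 h and 18.1-fold in morulae.

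Core genes that belong to particular tissues or to the immune form of the particle were nearly silent. Psma8, the alpha subunit of the testis particle, had counts in 21 of the 96 libraries; its highest level, 46.2 CPM, was in the 10 h library that went against its label. Psmb8 had counts in 38 libraries, its immune partner Psmb9 in 25, and the thymic Psmb11 in 30, and no comparison tested these genes because their counts were too low. Psmb8 had no count in any morula; 3 counts over the 7 morulae together would be 0.193 CPM. Psmb10, the third immune subunit, differed from these from 36 h on and is described below.

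Promoters were read for all members, whatever their change, from RefSeq windows of 250 bases before to 50 bases after the start on GRCm38.p6. A window was found for 42 of the 50 genes, leaving Psma8, Psmb1, Psmb2, Psmb7, Psmc3, Psmd3, Psmd7 and Psmg2 without one. Motifs were searched on both strands as plain letters, and all were chosen with the data in view. Shares are over genes: a gene with several windows counts once, as a match if any of them matches. The core of the site bound by ETS factors, CCGGAAG, stood in 15 of 42 windows (35.7%), against 9.93% of all 27025 windows, 12.9% of the 17491 of protein-coding genes, and 22.4% of the 7264 of genes tested between morulae and 36 h. It was present in 9 of 14 regulatory particle windows (64.3%) and in 1 of 11 windows of the constitutive core genes (9.09%), that of Psma6. The windows below show where this core lies in 5 base and 3 lid genes, 5′ to 3′ along the gene, with the match in capitals; CTTCCGG is the same core on the opposite strand.
Psmc1, an ATPase of the base, chr12:100110154-100110200 plus strand: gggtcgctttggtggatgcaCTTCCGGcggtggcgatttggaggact
Psmc2, an ATPase of the base, chr5:21786703-21786746 plus strand: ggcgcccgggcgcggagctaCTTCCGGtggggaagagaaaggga
Psmc6, an ATPase of the base, chr14:45329704-45329750 plus strand: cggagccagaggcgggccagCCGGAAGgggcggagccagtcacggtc
Psmd2, a base scaffold, chr16:20651606-20651651 plus strand: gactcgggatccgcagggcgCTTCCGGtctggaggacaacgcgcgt
Psmd4, a ubiquitin receptor, chr3:95042713-95042759 minus strand: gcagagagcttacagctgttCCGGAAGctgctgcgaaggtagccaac
Psmd6, a lid subunit, chr14:14120964-14121010 minus strand: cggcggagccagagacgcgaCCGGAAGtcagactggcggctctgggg
Psmd11, a lid subunit, chr11:80428584-80428614 plus strand: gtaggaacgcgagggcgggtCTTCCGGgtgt
Psmd12, a lid subunit, chr11:107479491-107479527 plus strand: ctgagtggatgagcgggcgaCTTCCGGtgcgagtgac

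In 6 of these 8 windows the match began within 45 bases of the start, nearest in Psmd11, at 11 bases before it. The antioxidant response element core, TGACNNNGC, is the letter pattern read by Nfe2l1 and Nfe2l2, the factors known for raising proteasome genes when the particle is impaired. It stood in 6 of 42 windows (14.3%), a share close to the 14.0% of all windows and below the 17.1% of tested genes. Among the genes of the cutting sites it was found in Psmb5 and Psmb6, shown here with the match in capitals.
Psmb5, chymotrypsin-like site, chr14:54618014-54618062 minus strand: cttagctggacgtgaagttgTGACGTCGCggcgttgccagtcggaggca
Psmb6, caspase-like site, chr11:70525328-70525356 plus strand: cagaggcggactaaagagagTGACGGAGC

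The letters CCAAT stood in 15 of 42 windows (35.7%) against 41.1% of all and 45.1% of tested genes; by particle it was 8 of 15 core and 4 of 14 regulatory particle windows. The letters GCGCATG of the nuclear respiratory factor NRF1 stood in 5 (11.9%) against 4.41% of all and 8.96% of tested genes. TATAAA stood in 4 (9.52%), below the 15.7% of all windows and above the 8.73% of tested genes. A match is a stretch of letters and carries no measurement of binding.

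Between oocytes and 0 h a few core genes rose steeply, Psma5 most of all, while the abundant alpha gene Psma7 and several cap genes fell. Of 41 members tested, 11 were called higher and 6 lower, where 23.3% of all 9556 genes tested were called higher and 22.5% lower. The median log2 change of the 41 was -0.04, and that of all genes -0.02. Among 13 core genes 5 were higher and 1 lower, and among 16 regulatory particle genes 2 were higher and 4 lower. The 14 cumulus genes differed between these groups too, with a median sum of 569 CPM over the oocytes (95.2 to 1007 CPM) against 125.1 CPM at 0 h (32.1 to 691 CPM), and their part in the changes was not tested.

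Psma5, an alpha ring subunit (ENSMUSG00000068749.9, GRCm38 chr3:108256926-108279974), had 3.14, 9.76 and 14.8 CPM as lowest, median and highest value in 8 oocytes. At 0 h its levels were 73.99, 109.7, 138.6, 167 and 123.7 CPM. Every 0 h embryo lay above every oocyte, and the log2 change was 3.83 ± 0.24 (SE), 14.2-fold, with an adjusted p of 6.95e-12 in edgeR's quasi-likelihood test. The exons of Psma5 overlap 1700010K24Rik on the other strand.

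Psmb2, a beta ring subunit (ENSMUSG00000028837.8, chr4:126677630-126709714), behaved alike. It had 56.5, 59.6 and 95.4 CPM as lowest, median and highest value in oocytes and 353, 391, 463, 584 and 495 CPM at 0 h, again with no overlap. Its log2 change was 2.75 ± 0.15 (SE), 6.72-fold, with an adjusted p of 4.47e-13. Of its values above 0, 58.3% were not whole before rounding, the highest share of any member, so its reads may be shared with other rows.

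Smaller rises separated oocytes from 0 h in Psma2, which went from 584 ± 58.2 CPM (SD, n = 8) in oocytes to 1340.1 ± 247 CPM (SD, n = 5), and in the ATPase gene Psmc6, which rose 2.57-fold. Psma7 (ENSMUSG00000027566.15, chr2:180036374-180042433) ran from 993 to 1730 CPM in oocytes and was 837, 862, 610.2, 607 and 613 CPM at 0 h, lower in each 0 h embryo than in any oocyte (log2 change -0.85 ± 0.13 SE, adjusted p 1.22e-05). The lid gene Psmd11 fell 1.69-fold without overlap, and the ubiquitin receptor Psmd4 fell 1.71-fold with overlap of the groups. Psme1 was called lower (log2 change -2.09, adjusted p 0.0426), but that call was lost on leaving out any of 10 of the 13 libraries in turn, with an adjusted p of up to 0.109. A rise of Psme3 (0.39, adjusted p 0.0388) was lost without 0 h replicate 3 (adjusted p 0.12) or replicate 4 (0.15).

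With 1 spread estimated over all 96 libraries, the calls between oocytes and 0 h came down to 4 higher and 1 lower; the falls of Psma7 (adjusted p 0.133) and Psmd11 (0.0517) were among those lost. Psmb5 and Psmb6 did not pass the test (log2 changes 0.23, adjusted p 0.669, and -0.15, adjusted p 0.328). Of 27 tested genes on a list of other ubiquitin and proteasome-associated genes, 13 were higher and 2 lower. Among those higher were the small lid subunit Sem1 (2.20, adjusted p 8.86e-10) and the core assembly factor Pomp (2.04, adjusted p 1.05e-09).

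From 0 h to 12 h Psma5, Psmb2 and 4 other core genes fell. Of 37 members tested, 3 were called higher and 8 lower, against 19.7% of all 8211 genes called higher and 19.4% lower, and their median log2 change was -0.18 against -0.02 over all genes. The sign of the members' median was not stable: it was 0.08 with DESeq2, 0.06 without a filter on low counts, 0.05 in 1 fit of all 96 libraries, 0.13 without 12 h replicate 3 and 0.08 without 12 h replicate 4. All 6 core genes that passed, of 13 tested, were lower. When libraries were scaled by their total alone, the split was 1 higher and 11 lower. With 1 spread over all 96 libraries it was 0 higher and 4 lower, with 3 and 7 at an unadjusted p under 0.05 in edgeR.

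Psma5 had 17.5, 34.8, 2.45, 5.10 and 20.1 CPM at 12 h, below each of the 0 h values above, and fell by 2.89 ± 0.46 (SE) on the log2 scale with an adjusted p of 0.000161. Psmb2 had 127.8, 218, 83.3, 79.5 and 100.96 CPM, also below every 0 h embryo, and fell by 1.88 ± 0.27 (SE) with an adjusted p of 3.95e-05. Both had returned towards the oocyte range within the 1-cell stage: the group medians of Psma5 between were 85.8 CPM after 2 h, 60.01 after 4 h, 42.6 after 6 h and 28.4 after 8 h. This comparison and the one with oocytes share the 0 h embryos.

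The scaffold gene of the base, Psmd1 (ENSMUSG00000026229.17, chr1:86064387-86139151), went the other way. It had 311, 298, 311, 358 and 353 CPM at 0 h and 663, 461, 674, 666 and 677 CPM at 12 h, without overlap (log2 change 0.94 ± 0.16 SE, adjusted p 0.000213). Its exons overlap those of Gm21972 on the same strand and of Htr2b on the other, and the strand and overlap settings of the counting are not given in the sources used here, so its counts may be shared with these genes. The lid genes Psmd8 (0.87, adjusted p 0.00985) and Psmd11 (0.45, adjusted p 0.027) were also higher; scaled by library total alone neither passed (0.60, adjusted p 0.0681, and 0.18, adjusted p 0.358). The fall of Psmb4 (-1.38, adjusted p 0.0191) was lost without 0 h replicate 4 (0.0625) or 12 h replicate 1 (0.052), and that of Psmb1 (-0.92, adjusted p 0.0244) without any of 5 of the 10 libraries, with an adjusted p of up to 0.0685. On the list of other genes 4 were higher and 9 lower of 27, among the latter Sem1 (-2.11, adjusted p 6.19e-07) and Nfe2l1, a regulator of proteasome genes (-1.61, adjusted p 0.00114).

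A comparison of 16 h with 14 h was added after the stage medians were seen, because several moved there. Of 41 members tested, 4 were called higher and 2 lower, against backgrounds of 5.62% higher and 6.6% lower of 11036 genes, with medians of -0.03 and 0.02. Scaling by library total alone gave 6 higher and 1 lower. The ATPase gene Psmc5 (ENSMUSG00000020708.12, chr11:106256154-106263120) had 42.0, 43.6, 63.7, 48.6 and 40.0 CPM at 14 h and 62.97, 94.8 and 131.7 CPM as lowest, median and highest value of 8 embryos at 16 h, which overlap (log2 change 1.01 ± 0.24 SE, adjusted p 0.0123). The lid gene Psmd12 rose by 0.89 ± 0.19 SE (adjusted p 0.00837). These were the calls that no left-out library removed. Titles of 5 of the 8 libraries at 16 h end in b, and none at 14 h do. Without those libraries Psmd12 did not pass (0.84, adjusted p 0.0582), and Psmc5 did (1.21, adjusted p 0.0339). Psma6 (0.95), Psmd10 (1.16), Psmd1 (-0.93) and Psmb3 (-0.73) lost theirs without any of 3, 6, 8 and 5 of the 13 libraries in turn, with adjusted p values of up to 0.0656, 0.0923, 0.0884 and 0.0965. With 1 spread over all 96 libraries edgeR called 0 members, with 7 higher and 7 lower at an unadjusted p under 0.05. Of 26 other genes 3 were higher and 2 lower, Nfe2l1 among the higher ones (1.10, adjusted p 0.00633). Without the titles ending in b Nfe2l1 did not pass (0.92, adjusted p 0.0862).

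Between 12 h and 24 h the inhibitor gene rose most. Of 40 members tested, 6 were called higher and 5 lower, where 13.4% of 11083 genes were called higher and 8.23% lower, with medians of -0.01 for the members and 0.05 for all genes. With 1 library left out at a time, the members' median ran from -0.13 to 0.22. Scaling by library total alone gave 8 higher and 3 lower. Psmf1, which encodes an inhibitor of the core that competes with the activators, had 21.5, 34.8, 26.9, 2.04 and 15.5 CPM at 12 h. It had 52.9, 99.7 and 130 CPM as lowest, median and highest value of 6 embryos at 24 h. No values overlapped, and the log2 change was 2.28 ± 0.44 (SE), 4.86-fold, with an adjusted p of 0.00344. The activator gene Psme3 rose 2.19-fold, from 71.4 ± 23.7 CPM (SD, n = 5) at 12 h to 156 ± 44.2 CPM (SD, n = 6) at 24 h, with an adjusted p of 0.013. Psma1 and Psma2 fell by 0.99 (adjusted p 0.00465) and 0.87 (adjusted p 0.00708) on the log2 scale, each without overlap.

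The 24 h libraries did not form 1 cluster for several of these genes, and the parting followed the letter b in the titles. Psma7 had 86.8, 189, 186 and 60.7 CPM in the 4 libraries without the letter and 984 and 699 CPM in the 2 with it. Psmd1 had 132.1 to 205 CPM without and 434 to 532 CPM with it, and Psmb2 370.1 to 446 CPM without and 135.1 to 155 CPM with it. At 22 h Psma7 was parted in the same direction, with 195 to 364 CPM in 3 libraries without the letter and 550.4 to 1485 CPM in 7 with it, whereas Psmd1 and Psmb2 overlapped there. The oviduct gene Ovgp1 moved with the letter: it was 151 and 73.1 CPM in the 2 marked libraries at 24 h and at most 1.72 CPM in the other 4; its part in these values was not tested. A list of 7 genes known from the 2-cell stage summed to 1243 and 1734 CPM in replicates 1 and 4 of 24 h and to at most 27.7 CPM in the other 4.

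Without the marked libraries, 6 members were higher and 9 lower at 24 h than at 12 h. The fall of Psmd1, -1.21 (adjusted p 0.0226), was then -1.97 (adjusted p 9.63e-06); with all libraries kept but 1 it was lost in 3 of 11 cases, with an adjusted p of up to 0.0527. Psmb2 rose by 1.39 (adjusted p 0.0162), a call lost without 12 h replicate 3 (0.0502), and by 1.72 (adjusted p 0.000367) without the marked libraries. Calls for Psma6 (1.09), Psmd10 (1.31), Psmd7 (-1.14) and Psmc3ip (-1.59) were lost without any of 4, 3, 7 and 7 of the 11 libraries, with adjusted p values of up to 0.0575, 0.0541, 0.12 and 0.103. Of 26 other genes 3 were higher and 2 lower, led by the ubiquitin shuttle genes Ubqln2 (-1.76, adjusted p 0.00641) and Rad23b (1.29, adjusted p 0.00279). Uba1, which activates ubiquitin (1.07, adjusted p 0.0248), lost its call without any of 6 libraries (up to 0.0719).

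Between 24 h and 36 h, the step to the late 2-cell stage, members moved in both directions. Of 46 members tested, 16 were called higher and 12 lower, against 29.1% of 12636 genes called higher and 23.2% lower, and the medians were 0.20 and 0.05. The order of the medians turned with DESeq2 (0.33 and 0.73), without a filter on low counts (0.13 and 0.49) and in 1 fit of all 96 libraries (0.12 and 0.21). They were 0.171 and 0.175 without titles ending in b, and -0.05 and -0.06 without 36 h replicate 1. Constitutive beta genes were 4 higher and 1 lower of 7, alpha genes 1 higher and 2 lower of 7. Lid genes were 4 higher and 0 lower of 8, base genes 1 higher and 4 lower of 9; the difference between lid and base was not tested.

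Psmd1 fell furthest. Its 36 h values were 13.0, 36.6 and 71.8 CPM as lowest, median and highest of 8 embryos, below all 24 h values (log2 change -2.68 ± 0.38 SE, 6.40-fold lower, adjusted p 4.27e-05), and -1.95 (adjusted p 0.000328) without the marked libraries. Psmc5 fell from 86.6 ± 27.4 CPM (SD, n = 6) at 24 h to 19.4 ± 16.7 CPM (SD, n = 8) at 36 h, with an adjusted p of 0.000906. Psma2, an alpha gene, fell by 1.44 on the log2 scale (adjusted p 6.14e-05), from 285 to 528 CPM down to 80.7 to 238 CPM, without overlap. Of the 3 base chaperones 1 was higher and 2 lower. With 1 library left out at a time, the falls were -1.98 to -1.65 for Psmd10, -1.74 to -1.44 for Psmd9 and -1.15 to -0.91 for the ubiquitin receptor Psmd4. None of these lost its call. The fall of Psma7 (-1.83, adjusted p 0.00614) rested on the 2 marked libraries: without them it was -0.34 with an adjusted p of 0.38.

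Of the genes for cutting sites, Psmb7 and Psmb5 rose and Psmb6 did not pass. Psmb7 had 7.72, 9.56, 9.91, 8.31, 20.5 and 15.7 CPM at 24 h and 20.9, 35.8 and 55.3 CPM as lowest, median and highest value at 36 h, just without overlap (1.69 ± 0.31 SE, adjusted p 0.000273). Its exons overlap Nek6 on the other strand. Psmb5 (ENSMUSG00000022193.7) went from 0.245 to 4.72 CPM up to 2.36 to 22.0 CPM, with overlap (2.71 ± 0.62 SE, adjusted p 0.00161). Psmb6 was at 206 CPM and 156 CPM as medians (-0.27, adjusted p 0.416).

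Psmb1, a beta ring gene without a cutting site (ENSMUSG00000014769.10, chr17:15475021-15499751), had 51.2, 25.2, 21.8, 28.03, 6.14 and 23.5 CPM at 24 h. It had 79.8, 154 and 314 CPM as lowest, median and highest value at 36 h, above every 24 h embryo (2.72 ± 0.38 SE, 6.57-fold, adjusted p 3.68e-05). Psmd14, the lid enzyme that removes ubiquitin chains, went from 5.87 to 13.1 CPM up to 24.8 to 144 CPM, without overlap (2.45 ± 0.37 SE, 5.46-fold, adjusted p 5.78e-05).

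Psmb10, Psme1 and Psme2, known from the immune form of the particle, rose at 36 h from levels near the limit of detection. Like Psme2b, they were too low to test between 12 h and 24 h and passed the count filter here through their 36 h counts. A fall could thus hardly have been called, and their p-values are no independent support for a rise. Their calls are among those counted above. Psme1 was tested in only 8 of 14 fits with 1 library left out. Psmb10 (ENSMUSG00000031897.9, chr8:105935735-105938444) was 1.29, 0, 0.495, 1.93, 1.42 and 0.652 CPM at 24 h and 39.7, 21.3, 4.25, 16.3, 8.93, 0, 25.4 and 22.3 CPM at 36 h; all but replicate 6 lay above the 24 h embryos (4.12 ± 0.83 SE, adjusted p 0.000599). Psme1 had 3.05, 8.96 and 14.8 CPM as lowest, median and highest value at 36 h, above the highest 24 h value of 1.65 CPM (3.58 ± 0.69 SE, adjusted p 0.00041). Psme2, its partner in the same cap, had 1.77, 12.5 and 39.5 CPM, above the highest 24 h value of 1.74 CPM (4.15 ± 0.76 SE, adjusted p 0.000291).

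Psme2b is a near copy of Psme2 and rose with it (3.18, adjusted p 0.000211), so reads of the pair may be divided between them by the counting. Psme1 overlaps Emc9 on the other strand. Psmb8 and Psmb9, which stand beside Psmb10 in the immune particle, had 36 h medians of 0 and 1.83 CPM and were too low to test. The sum of a list of 14 blood and immune genes was also higher at 36 h, though not every gene of the list was. The sum was 9.16 to 39.3 CPM in 5 of the 24 h embryos and 283 CPM in replicate 5 (median 25.9 CPM). At 36 h it was 42.4 to 349 CPM (median 174 CPM). At 36 h 13 of the 14 had counts, only 3 in total for Tyrobp and 4 for Hbb-bt, and the leukocyte gene Ptprc had none. The antigen presentation genes Cd74 and H2-Ab1 had medians of 0.246 and 0.123 CPM at 24 h and of 21.4 and 11.8 CPM at 36 h. The largest median at 36 h was that of the alpha globin gene Hba-a1, 82.97 CPM against 3.37 CPM at 24 h. Hba-a2 had 22.6 against 1.23 CPM. Medians were lower at 36 h for Laptm5 (1.97 against 5.42 CPM), Hbb-bs (0.123 against 1.11 CPM), Hbb-bt (0 against 0.438 CPM) and Fcer1g (0 against 0.143 CPM). The part of other cells in these rises was not tested. The 14 cumulus genes summed to 33.7 to 144 CPM at 24 h and 20.7 to 210.4 CPM in 7 of the 36 h embryos and to 1033 CPM in replicate 3. Without that replicate the changes were 4.23 for Psmb10 (adjusted p 0.000531) and 4.12 for Psme2 (adjusted p 0.00053).

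Psme4, the activator gene with the highest level, did not pass between 24 h and 36 h (-0.02, adjusted p 0.957); in replicate 3 of 36 h it was 88.4 CPM against 270.4 to 371 CPM in the other 7. Psme3 fell by 0.60 (adjusted p 0.0261), a call lost without any of 3 of 14 libraries (up to 0.066) and with scaling by library total alone (-0.38, adjusted p 0.155). Psmc3ip, which is no subunit, rose by 2.68 (adjusted p 0.0002). Of 28 other genes 6 were higher and 11 lower, among the higher ones the ubiquitin fusion gene Rps27a (2.26, adjusted p 0.0024).

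**Figure D4:**
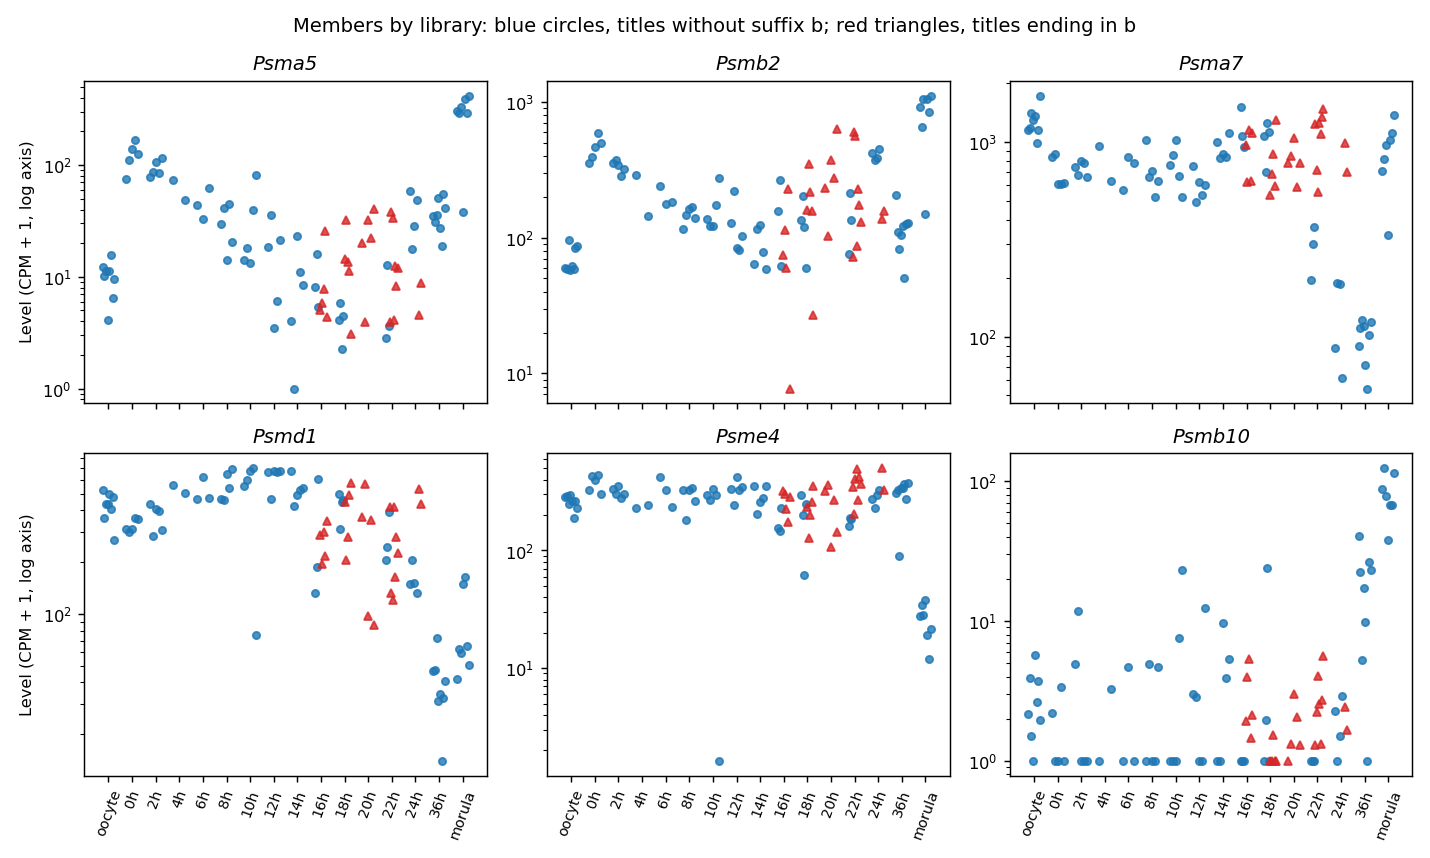
Level of 6 genes in every library (CPM + 1, log axis) by stage, 1 point per oocyte or embryo, with red triangles for titles ending in b and blue circles for the others. Psma5 and Psmb2 peak at 0 h and again in morulae, Psmd1 falls to a median of 36.6 CPM at 36 h, and Psme4 drops to a median of 26.5 CPM in morulae.

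Set against 12 h, which shares its 36 h embryos with the comparison above, 13 of 46 genes were higher and 10 lower at 36 h, where 36.3% of 12066 genes were called higher and 24.0% lower. Scaling by library total alone gave 18 higher and 6 lower, and DESeq2's size factors gave 18 and 8. The medians were 0.59 for the members and 0.36 for all genes, but the order of the 2 turned without a filter on low counts (0.55 and 1.08), in 1 fit of all 96 libraries (0.47 and 0.61) and without 12 h replicate 3 (0.32 and 0.37). Psmd1 was 14.8-fold lower (-3.89 ± 0.30 SE, adjusted p 5.71e-09), Psma7 5.71-fold lower (-2.51 ± 0.23 SE, adjusted p 4.54e-08) and Psma2 4.99-fold lower (-2.32 ± 0.22 SE, adjusted p 7.68e-08), each without overlap. Psma7 had 751, 488, 623, 536 and 599 CPM at 12 h and 53.2, 105.5 and 121.2 CPM as lowest, median and highest value at 36 h, so its fall from the 1-cell level did not rest on the 24 h embryos.

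Psmb7 (2.97 ± 0.52 SE, adjusted p 8.81e-05) and Psmb1 (2.72 ± 0.34 SE, adjusted p 1.84e-06) were higher at 36 h than at 12 h without overlap. The immune genes were less clear here: replicate 5 of 12 h held 1337 CPM of the cumulus list and 15.8 CPM of Psme1, 12.3 CPM of Psme2 and 11.4 CPM of Psmb10. Psme1 and Psme2 did not pass with it (0.75, adjusted p 0.367, and 1.70, adjusted p 0.0561) and passed without it (1.89, adjusted p 0.041, and 2.66, adjusted p 0.01). Psmb10 passed (2.33, adjusted p 0.0306) but lost the call without any of 5 of 13 libraries (up to 0.0707). Psme1, Psme2 and Psmb10 here too entered the test through their 36 h counts. Of 28 other genes 6 were higher and 9 lower, among them Rps27a (2.66, adjusted p 0.00267) and the shuttle gene Ubqln1 (-2.06, adjusted p 2.09e-07).

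In morulae all core genes tested and most regulatory particle genes were higher than at 36 h, while the median change of all genes was below 0. Of 46 members tested, 36 were called higher and 2 lower, where 28.2% of 11216 genes were called higher and 43.5% lower, and the median log2 change was 2.37 for the members and -0.55 for all genes. All 15 core genes tested were higher, as were 15 of 17 regulatory particle genes and all 4 core chaperones. The exceptions in the regulatory particle were Psmd2 (0.62, adjusted p 0.194) and Psmd3 (0.09, adjusted p 0.795). Under the other scalings and filters the median of the members stayed between 2.06 and 2.39 and that of all genes between -1.42 and -0.55. Without morula replicate 4 the counts were 37 higher and 1 lower.

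Psma6, an alpha gene (ENSMUSG00000021024.14, chr12:55384222-55418454), had 11.1, 47.5 and 174 CPM as lowest, median and highest value at 36 h. It had 36.9 CPM in morula replicate 4 and 811 to 1597 CPM in the other 6 morulae, so that replicate 4 alone overlapped the 36 h range (4.08 ± 0.55 SE, 16.9-fold, adjusted p 5.55e-07). Psmg2, a chaperone of alpha ring assembly, went from 0 to 20.9 CPM up to 165 to 295 CPM in those 6 morulae, with 0 in replicate 4, and had the largest change of the family (4.51 ± 0.51 SE, adjusted p 3.03e-08).

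The genes of all 3 cutting sites rose. Psmb5 had 2.36 to 22.0 CPM at 36 h and 147 to 204 CPM in 6 morulae, with 0 in replicate 4 (3.71 ± 0.38 SE, 13.1-fold, adjusted p 8.78e-09). Psmb6 rose without overlap, from 160.0 ± 69.03 CPM (SD, n = 8) at 36 h to 773 ± 212 CPM (SD, n = 7) in morulae, with a log2 change of 2.36 (adjusted p 1.47e-06). Psmb7 rose by 2.22 (adjusted p 2.92e-07), from a median of 35.8 CPM to 167 CPM.

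In the cap, Psmc5 rose without overlap from 5.91, 12.3 and 49.3 CPM as lowest, median and highest value to 142, 213 and 486 CPM (3.87 ± 0.44 SE, 14.7-fold, adjusted p 4.14e-08). The ubiquitin receptor Psmd4 went from 59.97 to 145 CPM up to 147 to 520.0 CPM (1.74, adjusted p 3.06e-05), and Psmd14 reached a median of 231 CPM (2.25, adjusted p 1.87e-05). All 8 windows shown above for the ETS core belong to tested genes. Over the 15 genes with the ETS core, 12 were higher and 1 lower with a median change of 2.03, and over the 24 tested genes whose window lacks it, 18 were higher and 1 lower with a median of 2.42. The rise in morulae was thus found in genes with and without these letters.

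Of the 5 activator genes 1 was higher and 1 lower, and of the 3 base chaperone genes none was called higher and 1 was lower. Psme4 (ENSMUSG00000040850.17, chr11:30771726-30880361), which encodes the large activator known from testis and chromatin, had 88.4, 333 and 371 CPM as lowest, median and highest value at 36 h and 10.9, 26.5 and 36.9 CPM in morulae. No morula reached the lowest 36 h embryo, and the log2 change was -3.61 ± 0.35 (SE), 12.2-fold lower, with an adjusted p of 3.7e-09. Psme1 rose (2.43, adjusted p 1.18e-05) from a median of 8.96 to 47.9 CPM, whereas its partner Psme2 did not pass (-0.37, adjusted p 0.513), with 12.5 and 10.5 CPM as medians. Psme3 did not pass in this fit (-0.27, adjusted p 0.375), but was lower with DESeq2's size factors (-0.58, adjusted p 0.046).

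Psmb10 rose further, to 36.9, 77.9 and 123.1 CPM as lowest, median and highest value (2.43 ± 0.48 SE, adjusted p 9.41e-05). In morulae the cumulus list summed to 0 to 73.7 CPM with 9 of 14 genes at 0 counts, and the blood and immune list to 19.3 to 147 CPM with 4 of 14 at 0, Ptprc among them. Both highest sums were those of morula replicate 4, with its few counts. The other morulae had at most 4.75 CPM of the cumulus list and 54.2 CPM of the blood and immune list. Psmd5, a base chaperone, was the other gene called lower (-0.69, adjusted p 0.0349), and lost the call without any of 8 of 15 libraries (up to 0.104). Psmf1 (0.38, adjusted p 0.286), Psmd9 (0.43, adjusted p 0.217) and Psmd10 (0.98, adjusted p 0.0541) did not pass. Of 28 other genes 12 were higher and 7 lower, among them Rps27a (4.65, adjusted p 1.94e-10) and Pomp (3.84, adjusted p 4.43e-09).

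**Figure D5:**
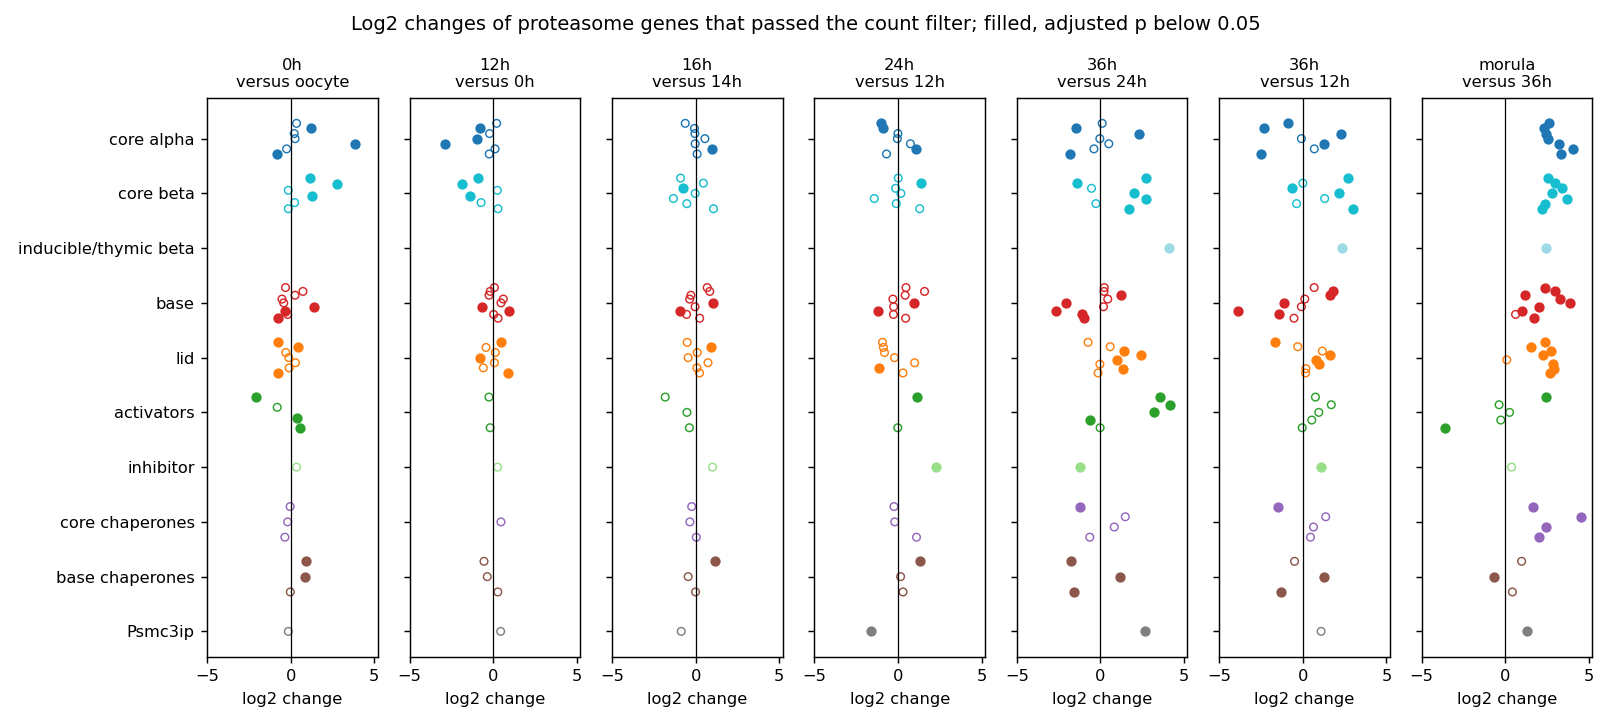
Fitted log2 change of every tested gene in each comparison, grouped by role, with filled points for genes called at an adjusted p below 0.05. Between morulae and 36 h the core and core chaperone points all lie above 0, while Psme4 lies at -3.61.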

How the data were processed

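Polyadenylated RNA of 96 single oocytes and embryos was measured. The submitters' processing notes name Trimmomatic 0.39, STAR, featureCounts and the mm10 build; counting options are not given in the sources used here. The values the authors deposited are expected counts: 28.4% of those above 0 were not whole, so they were rounded, although the test had been planned for whole counts. Rows were 55401 genes and 873 rows of repeats were not used, and 55141 identifiers matched the GENCODE M21 names, 260 did not. Each comparison was fitted on its 2 groups with edgeR 4.0.16 (quasi-likelihood test, TMM, default expression filter) in R 4.3.3, with Benjamini-Hochberg adjustment over all genes tested; the SE is the log2 change divided by the square root of F. DESeq2 1.42.0, other scalings, no filter, left-out libraries, a replicate block, 1 fit of all libraries and leaving out titles ending in b were tried. Genes named were drawn from up to 5 largest called in each direction plus the catalytic, tissue-specific, activator, Psmd4 and Psmd14 genes. Not every gene of this rule is given in every comparison. Other genes were chosen after their values were seen. The members and lists were chosen with earlier results of these data known. Replicates are numbered in accession order. The numbers in the titles did not pair libraries (correlations of same-numbered deviations from -0.20 to 0.33). P-values measure the spread between these samples. Some genes of the list of other pathway genes are not reported here.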

Additional observations from a re-analysis of the deposited data

Results flagged for a closer look

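Dixon's test was applied to 98 class sums in groups of 4 to 10 libraries, and 13 had a library far from the others; chance flags about 1 in 20 groups. Values are summed CPM of a class. In morula replicate 4 the alpha sum was 922 (others 3876 to 5893) and the beta sum 811 (others 3644 to 4666). In 10 h replicate 5, the library against its label, the beta sum was 2124 (others 449.6 to 732.5), the base sum 2080 (others 1019 to 1285) and the lid sum 1231 (others 575.8 to 679). Single high beta sums were 930.4 in 2 h replicate 2 (others 635 to 709), 622 in 12 h replicate 2 (others 449 to 498) and 618 in 14 h replicate 3 (others 371.0 to 434.6). The base sum was 1261 in 16 h replicate 3 (others 881 to 975). The lid sum was 689 in 8 h replicate 2 (others 548 to 563), 998 in 18 h replicate 9 (others 574 to 769.8) and 824 in 36 h replicate 1 (others 311 to 507.8). The activator sum was 196.5 in 36 h replicate 3 (others 411 to 524), where Psme4 was low; the cumulus list was highest of its group in 2 h replicate 2, 8 h replicate 2, 10 h replicate 5, 14 h replicate 3 and 36 h replicate 3, and its part in these sums was not tested.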

How the results depend on the processing

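No called change of a named gene changed sign under any alternative run, but in some comparisons the changes of Psmb6, Psmd14 and Psme4 that were not called took either sign (Psmd14 from -0.23 to 0.27 for 12 h against 0 h, Psme4 from -0.14 to 0.13 for 36 h against 24 h over left-out libraries). Of the changes of named genes, 96 were called, and 62 of these stayed called under every alternative in which the gene was tested. A gene that failed the count filter of a run was not counted as lost there. Psme1 for 36 h against 24 h was tested in only 8 of 14 fits with 1 library left out. Counts of members called moved most where few were called. With 1 fit of all 96 libraries they were 4 higher and 1 lower for 0 h against oocytes, 0 and 4 for 12 h against 0 h (3 and 7 at an unadjusted p under 0.05) and 0 and 0 for 16 h against 14 h (7 and 7 unadjusted, edgeR); the cause was not tested. With library size alone, 1 was higher for 12 h against 0 h, 1 lower for 16 h against 14 h, 3 lower for 24 h against 12 h and 6 lower for 36 h against 12 h. Members called lower were 4 with DESeq2 and 0 without a filter on low counts for 16 h against 14 h, and 9 with DESeq2 for 24 h against 12 h; without the filter 8 were higher for 36 h against 12 h. Without titles ending in b, 1 was lower for 16 h against 14 h and 9 for 24 h against 12 h, from fewer samples. With the title number as a replicate block, calls were 0 and 0 for 16 h against 14 h (9 and 4 unadjusted, edgeR), 8 lower for 24 h against 12 h and 1 lower for morulae against 36 h; the numbers did not pair the libraries.

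Leaving out 1 library at a time gave 9 to 14 higher and 4 to 7 lower for 0 h against oocytes, 2 to 4 and 5 to 9 for 12 h against 0 h, 2 to 6 and 0 to 5 for 16 h against 14 h, 2 to 7 and 2 to 7 for 24 h against 12 h, 14 to 17 and 11 to 13 for 36 h against 24 h, 7 to 17 and 8 to 11 for 36 h against 12 h, and 35 to 38 and 1 to 2 for morulae against 36 h. With library size alone, mean class sums moved by more than 1 SD: alpha to 2005, 1838 and 1529 CPM and beta to 462, 452 and 429.9 CPM (6, 8 and 12 h), base to 934, 913, 825, 935.5 and 931 CPM (2, 4, 6, 8 and 12 h), lid to 515, 452, 497 and 492.8 CPM (4, 6, 8 and 12 h), activators to 326 and 354 CPM (8 and 12 h), core chaperones to 105.3 and 100.95 CPM (4 and 12 h) and base chaperones to 301, 245.5, 239.7 and 311 CPM (4, 6, 8 and 36 h). Depth limits morula replicate 4 most, since 1 count there is worth more than in any other library. Totals alone as scaling took the all-gene median (log2) from -0.02 to -0.29 for 12 h against 0 h, from 0.02 to 0.16 for 16 h against 14 h, from 0.05 to 0.25 for 24 h against 12 h, from 0.05 to 0.29 for 36 h against 24 h, from 0.36 to 0.80 for 36 h against 12 h and from -0.55 to -0.78 for morulae against 36 h.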
